A study of Mus musculus with 13 samples.

Results

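The 48 genes described here encode the machinery of mitosis: the spindle checkpoint, the cyclins and kinases that drive entry into mitosis, the chromosomal passenger complex, kinesin motors, centromere and kinetochore proteins, chromosome structure proteins, spindle assembly factors and cytokinesis proteins, with the transcription factor Mybl2. A gene was taken where the array annotation gave its symbol alone to a row of the expression table, and the row of highest mean over all arrays was used where there were several. Rows were found for 46 of the 48 genes, out of 16661 rows tested, and Ccnb1 and Cenpf had no such row and were not analysed here. Only Plk1 had more than 1 row. The 46 genes lie on 17 chromosomes, with at most 8 on any of them.

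In mitosis, Cdk1 bound to cyclins sets off chromosome condensation and spindle assembly, and kinetochores built on centromeric chromatin attach each chromosome to microtubules. Until every kinetochore is attached, the spindle checkpoint holds back the anaphase-promoting complex (APC/C) and its activator Cdc20, which otherwise mark cyclin B and securin for destruction. Most of these genes are transcribed late in the cell cycle, so their RNA in a bulk sample also varies with the share of cells in cycle, and mouse ES cells are known for rapid division with short gap phases. In these bulk samples, fewer dividing cells and less RNA per dividing cell cannot be told apart.

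RNA was measured on 13 Affymetrix Mouse Exon 1.0 ST arrays, and the values are log2 RMA signal, which can be compared between arrays for a gene but not between genes. The 8 arrays of induced pluripotent stem (iPS) cells came from clones 1, 2, 5 and 6, with 2 arrays each. These clones were made with an OSK lentivirus from mouse embryonic fibroblasts and are labelled as strain C57Bl/6, and each is 1 picked colony expanded on feeder layers of fibroblasts. The other arrays were 2 of MPSVII ES cells (C57Bl/6), 1 of B6 Blu ES cells (C57BL/6NTac) and 2 of the fibroblasts (MEF, C57Bl/6). MPSVII stands for mucopolysaccharidosis type VII, in which lysosomes cannot break down certain sugar chains. The titles and the design text name MPSVII fibroblasts as the source of the clones, while the source and growth fields name wildtype B6 embryos, and the names of the titles are used here. No label says that the arrays of a line came from separate cultures, so p-values measure only the spread between these samples, which may be technical.

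The labelled cell types were checked with marker genes. All 9 measured pluripotency markers were higher in clones, in MPSVII ES and on the B6 Blu ES array than in MEF, and their summed linear signal was 3954 to 8557 on the clone arrays, 6640 and 8613 in MPSVII ES, 4750 on the B6 Blu ES array and 161 and 166 in MEF. All 10 fibroblast markers were lower than in MEF in each of these comparisons, with sums of 351 to 882 in clones, 393 and 481 in MPSVII ES, 1432 on the B6 Blu ES array and 7894 and 9658 in MEF. The MEF arrays also carried macrophage genes: all 10 macrophage markers were lower in clones than in MEF, and their sum was 195 to 341 in clones, 210 and 227 in MPSVII ES, 190 on the B6 Blu ES array and 9257 and 10371 in MEF. Every difference from MEF below is therefore a difference from fibroblast samples with this macrophage signal, whose part in the results was not tested. The arrays also differed in spread, with interquartile ranges of all rows of 1.70 to 2.39 in clones (the lowest pair, 1.88 and 1.70, in clone 2), 2.20 and 2.25 in MPSVII ES, 1.95 on the B6 Blu ES array and 2.83 and 2.41 in MEF.

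Many promoters of late cell cycle genes hold a cell cycle homology region, to which DREAM and MuvB complexes with B-Myb (the Mybl2 protein) are known to be recruited, near CCAAT boxes bound by the factor NF-Y. The promoters of 5 members are shown as examples, with Mki67 among them because its values set it apart from the others. Each line gives the 200 bases before the RefSeq transcription start (GRCm38.p6), 5′ to 3′ on the strand of the gene, with capitals marking the letters TTTGAA or TTCGAA of a homology region and CCAAT of a CCAAT box, on either strand.
Cdk1 (chr10:69352913-69353112, minus strand): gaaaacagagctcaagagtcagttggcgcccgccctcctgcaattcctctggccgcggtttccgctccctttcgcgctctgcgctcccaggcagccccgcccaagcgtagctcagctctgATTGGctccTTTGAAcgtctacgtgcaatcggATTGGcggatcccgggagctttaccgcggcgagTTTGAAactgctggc
Cdc20 (chr4:118437344-118437543, minus strand): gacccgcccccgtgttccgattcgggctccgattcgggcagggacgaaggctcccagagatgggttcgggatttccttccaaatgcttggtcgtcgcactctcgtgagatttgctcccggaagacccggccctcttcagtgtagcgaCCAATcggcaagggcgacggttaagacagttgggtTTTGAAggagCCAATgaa
Kif11 (chr19:37376182-37376381, plus strand): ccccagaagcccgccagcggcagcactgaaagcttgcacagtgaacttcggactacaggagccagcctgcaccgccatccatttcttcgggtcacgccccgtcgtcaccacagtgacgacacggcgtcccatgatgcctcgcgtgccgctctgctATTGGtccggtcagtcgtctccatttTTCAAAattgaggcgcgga
Top2a (chr11:99024190-99024389, minus strand): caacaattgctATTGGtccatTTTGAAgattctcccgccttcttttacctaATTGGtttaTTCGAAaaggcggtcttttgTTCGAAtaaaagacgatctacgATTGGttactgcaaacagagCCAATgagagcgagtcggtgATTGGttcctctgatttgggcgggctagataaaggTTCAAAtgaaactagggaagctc
Mki67 (chr7:135716380-135716579, minus strand): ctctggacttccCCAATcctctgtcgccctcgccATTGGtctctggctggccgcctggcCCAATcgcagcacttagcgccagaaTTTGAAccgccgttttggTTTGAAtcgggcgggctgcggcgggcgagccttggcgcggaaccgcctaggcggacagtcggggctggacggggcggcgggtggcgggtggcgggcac

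All 5 stretches hold both kinds of match. Cdk1 had 2 homology region matches and 2 CCAAT matches, and Top2a had 4 and 5. RefSeq windows of 300 bases (250 before to 50 after the start) were found for 38 of the 46 members. Of these members, 27 (71.1%) held TTTGAA or TTCGAA, against 21.7% of all 27025 genes with such a window, and 25 (65.8%) held CCAAT, against 41.1% of all genes. Both motifs stood in 1 window for 21 members (55.3%), against 8.61% of all genes. Matches of the motifs can overlap at their end letters. Mad2l1, Melk, Birc5, Kif18a, Nuf2, Nusap1 and Mybl2 held neither motif, and all of them were called higher in clones than in MEF. Bub3 and Mki67 held both and were not called there. Since 43 of 46 members were called, these pairings cannot tell whether the motifs matter. A match describes the letters in the window and does not show a bound factor. Whether the motifs bear on the differences below was not tested.

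The first comparison asks how the mitotic genes stood in reprogrammed and embryonic pluripotent cells against fibroblasts. They were higher almost throughout. In clones 43 of 46 members rose relative to MEF and 0 fell, against 7.78% of all rows that were higher and 27% that were lower. After quantile normalization, which gives every array the same spread, 46 members were higher in clones, against 20% of all rows that were higher and 18.7% that were lower. In MPSVII ES cells 43 members rose and 0 fell, against 6.7% and 20% of all rows. On the B6 Blu ES array 33 members rose and 0 fell, against 3.3% and 18% of all rows, and this comparison rests on 1 array of the ES line. A gene was called where its Benjamini-Hochberg adjusted p over all rows in limma lay under 0.05, and the 3 comparisons share the MEF arrays.

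The median difference of the members from MEF was 1.66 log2 units in clones, 1.75 in MPSVII ES and 1.34 on the B6 Blu ES array, while the medians of all rows were -0.09, -0.08 and -0.12. The 8 clone arrays lay above both MEF arrays for 40 members, against 7.63% of all rows, and below both for 0 members, against 26.1%. Both MPSVII ES arrays lay above both MEF arrays for 45 members, against 22.6% of all rows, and below both for 0 members, against 37.6%. MEF had the lowest mean of the 7 lines for 42 members, a rank for which the share of all rows is not given. The median over members on an array was 6.19 to 7.75 in clones, 7.35 and 7.41 in MPSVII ES, 6.76 on the B6 Blu ES array and 5.44 and 5.17 in MEF.

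**Figure D1:**
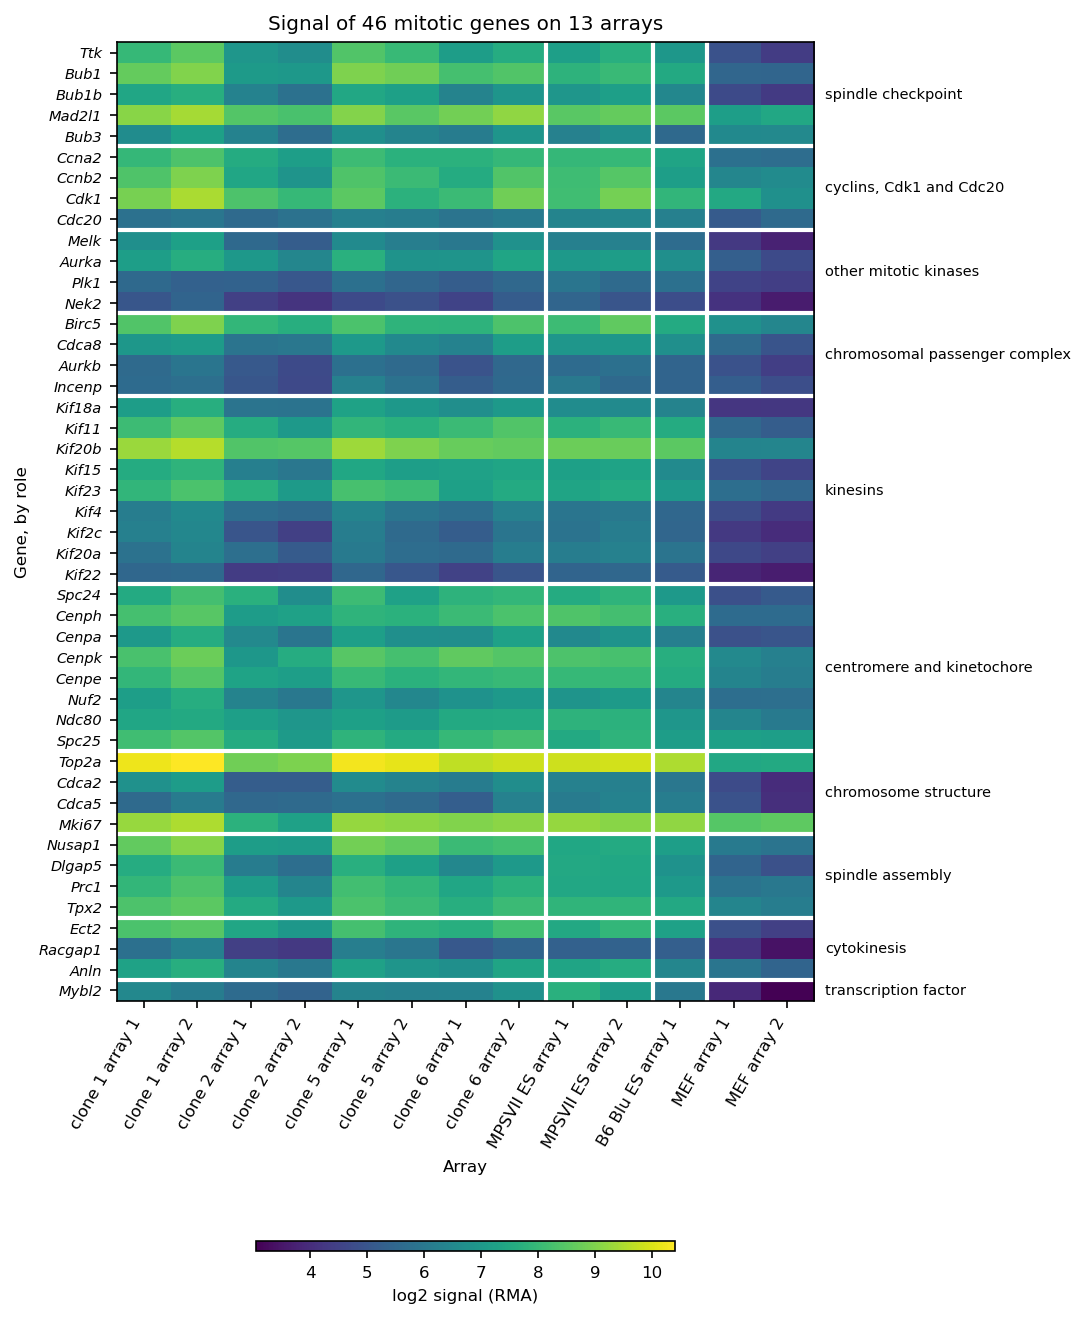
Heat map of log2 RMA signal (colour) of the 46 genes (down, grouped by role) on the 13 arrays (across, with 2 arrays per line and 1 of B6 Blu ES). The MEF columns at the right are darker than the others for most genes, with a median over genes of 5.44 and 5.17, and the clone 2 columns (6.72 and 6.19) are the darkest of the clone columns.

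The spindle checkpoint genes gave some of the largest differences and the smallest. Of its 5 measured genes, 4 rose in clones (median of the 5 genes 2.38), 4 in MPSVII ES (2.46) and 4 on the B6 Blu ES array (1.94). Ttk, the kinase that starts checkpoint signalling at unattached kinetochores, had a lowest, median and highest value of 6.66, 7.79 and 8.56 on the clone arrays, 7.21 and 7.67 in MPSVII ES, 6.94 on the B6 Blu ES array and 4.90 and 4.36 in MEF. No pluripotent array came near the MEF values. The difference was 3.03 ± 0.23 log2 units in clones (8.16-fold, adjusted p = 2.21e-06, errors being standard errors of limma throughout) and 2.81 ± 0.29 in MPSVII ES (adjusted p = 3.92e-05).

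Bub1, a kinetochore kinase of the checkpoint, had values of 6.96, 8.54 and 9.02 (lowest, median and highest) in clones, 7.80 and 8.04 in MPSVII ES, 7.52 on the B6 Blu ES array and 5.47 and 5.45 in MEF. The clones spread widely, but each of their arrays lay above MEF. Bub1 rose by 2.81 ± 0.15 in clones (adjusted p = 2.05e-07) and by 2.46 ± 0.19 in MPSVII ES (adjusted p = 5.07e-06).

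Bub1b encodes BubR1, a part of the complex that inhibits APC/C. It had values of 5.79, 7.06 and 7.65 in clones, 6.92 and 7.20 in MPSVII ES, 6.44 on the B6 Blu ES array and 4.70 and 4.30 in MEF, again without overlap. Its differences were 2.38 ± 0.21 in clones (adjusted p = 5.89e-06) and 2.55 ± 0.26 in MPSVII ES (adjusted p = 3.59e-05). Mad2l1, whose protein binds and holds Cdc20, had 8.29, 8.93 and 9.40 in clones, 8.53 and 8.66 in MPSVII ES, 8.54 on the B6 Blu ES array and 7.18 and 7.46 in MEF. All pluripotent arrays were above MEF here as well, by 1.53 ± 0.18 in clones (adjusted p = 6.26e-05) and 1.28 ± 0.23 in MPSVII ES (adjusted p = 0.00171).

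Bub3 was the exception in the checkpoint group. Its protein recruits Bub1 and BubR1 to kinetochores, and it had 5.67, 6.50 and 7.23 in clones, 6.29 and 6.68 in MPSVII ES, 5.56 on the B6 Blu ES array and 6.53 and 6.51 in MEF. The MEF arrays lay in the middle of the clone arrays. The difference was -0.03 ± 0.25 in clones (adjusted p = 0.954) and -0.03 ± 0.32 in MPSVII ES (adjusted p = 0.966). After quantile normalization the sign turned and the difference in clones was 0.65 (adjusted p = 0.0107). As deposited, the difference on the B6 Blu ES array was -0.96, which was not called (unadjusted p under 0.05 in limma).

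**Figure D2:**
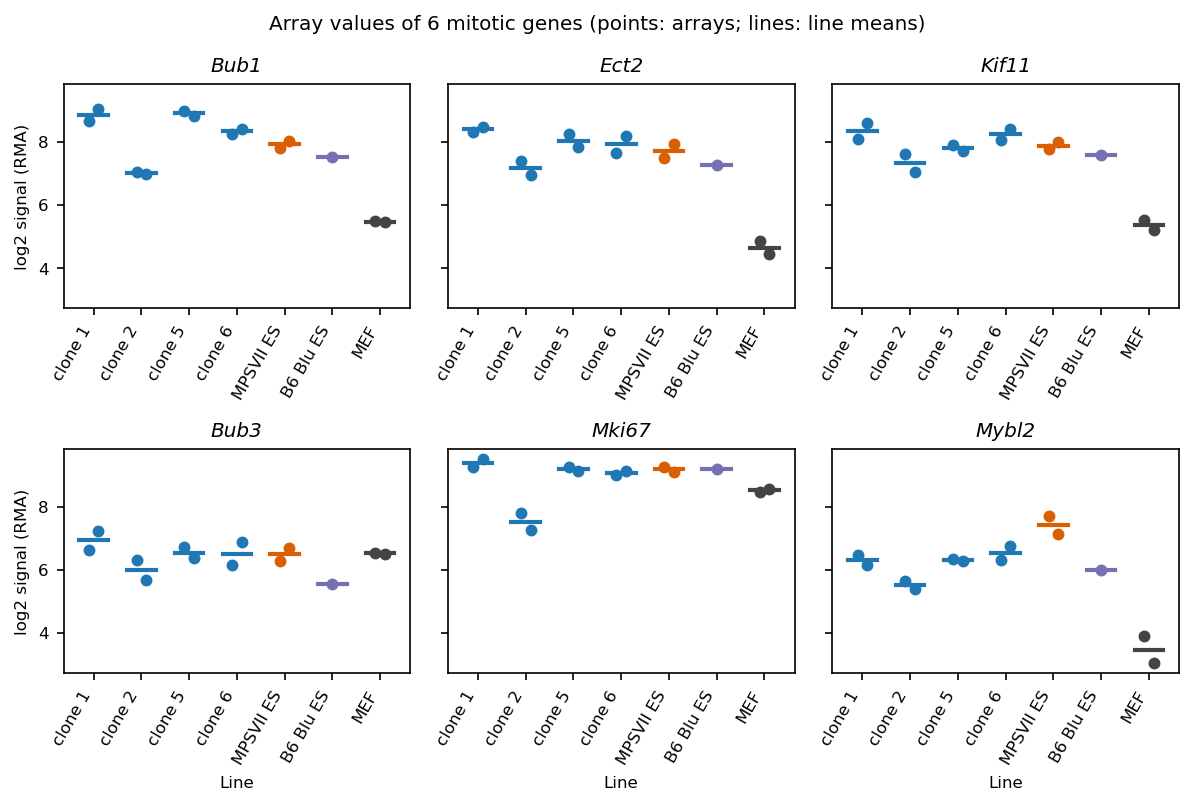
Log2 RMA signal (vertical axis, shared) of 6 genes in the 7 lines (horizontal axis), with a point per array and a line at each line's mean. Bub1, Ect2 and Kif11 lie above MEF on every pluripotent array, Bub3 overlaps MEF (6.53 and 6.51), Mki67 is below MEF in clone 2 alone, and Mybl2 is highest in MPSVII ES (7.72 and 7.12).

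Among the cyclins, Cdk1 and Cdc20, all 4 measured genes rose in clones (median 1.43) and in MPSVII ES (median 1.59), and 2 of 4 rose on the B6 Blu ES array. Cdk1, the kinase that drives entry into mitosis, had 7.77, 8.45 and 9.47 in clones, 8.16 and 8.86 in MPSVII ES, 7.88 on the B6 Blu ES array and 7.49 and 6.74 in MEF. The highest MEF array was close to the lowest clone array, without overlap. The difference was 1.37 ± 0.31 in clones (adjusted p = 0.00499) and 1.40 ± 0.39 in MPSVII ES (adjusted p = 0.022).

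Ccna2, which encodes cyclin A, rose by 2.10 ± 0.17 in clones and by 2.23 ± 0.22 in MPSVII ES. Ccnb2, a cyclin B gene, rose by 1.49 ± 0.25 in clones and by 1.79 ± 0.32 in MPSVII ES. Cdc20 showed the smallest of these differences, 0.57 ± 0.16 in clones (adjusted p = 0.0155) and 1.01 ± 0.20 in MPSVII ES (adjusted p = 0.003), and its clone and MEF arrays overlapped.

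All 4 of the other mitotic kinases rose in clones and in MPSVII ES, and 3 of them on the B6 Blu ES array. Melk, a kinase of dividing and stem-like cells, differed by 2.28 ± 0.24 in clones and 2.27 ± 0.30 in MPSVII ES. Aurka, the spindle pole kinase Aurora A, differed by 2.12 ± 0.27 in clones and 2.08 ± 0.34 in MPSVII ES. Plk1, a kinase of mitotic entry and spindle poles, differed by 0.94 ± 0.17 in clones (adjusted p = 0.00116) and 1.27 ± 0.21 in MPSVII ES. The second Plk1 row was dimmer (mean 3.41, against 5.35 for the row used) and gave -0.16 in clones (adjusted p = 0.545), so the rows of this gene disagree. Nek2, a kinase of centrosome separation, differed by 0.93 ± 0.23 in clones and 1.36 ± 0.28 in MPSVII ES.

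The chromosomal passenger complex corrects faulty attachments and guides cytokinesis, and 3 of its 4 genes rose in clones (median 1.03) and in MPSVII ES (median 1.34), with 1 on the B6 Blu ES array. Its kinase gene Aurkb had 4.70, 5.57 and 5.91 in clones, 5.61 and 5.76 in MPSVII ES, 5.43 on the B6 Blu ES array and 4.91 and 4.42 in MEF. The lowest clone array, of clone 2, fell between the MEF arrays. The difference was 0.72 ± 0.21 in clones (adjusted p = 0.0183) and 1.02 ± 0.26 in MPSVII ES (adjusted p = 0.0138).

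Birc5, which encodes survivin, rose by 1.56 ± 0.24 in clones and by 1.75 ± 0.30 in MPSVII ES. Cdca8, which encodes borealin, rose by 1.34 ± 0.24 in clones and by 1.66 ± 0.30 in MPSVII ES. Incenp, the scaffold of the complex, did not pass the test: it differed by 0.46 ± 0.20 in clones (adjusted p = 0.11) and by 0.76 ± 0.26 in MPSVII ES (adjusted p = 0.0512).

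All 9 kinesin genes rose in clones (median 2.18) and in MPSVII ES (median 1.88), and 8 rose on the B6 Blu ES array (median 1.42). Kif11, the motor that pushes spindle poles apart, had 7.04, 7.97 and 8.58 in clones, 7.77 and 7.99 in MPSVII ES, 7.56 on the B6 Blu ES array and 5.52 and 5.22 in MEF. The pluripotent arrays stood far above MEF with no overlap. The difference was 2.55 ± 0.20 in clones (5.88-fold, adjusted p = 2.98e-06) and 2.51 ± 0.26 in MPSVII ES (adjusted p = 3.49e-05).

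Kif18a, which dampens the movement of chromosomes at the metaphase plate, differed by 2.58 ± 0.17 in clones, and Kif20b, a motor of late cytokinesis, by 2.54 ± 0.15. Kif15, which backs up Kif11, differed by 2.37 ± 0.16, and Kif23, a motor of the central spindle, by 2.18 ± 0.20. The motors with the smaller differences in clones were Kif4, a motor on chromosome arms (1.51 ± 0.21), Kif2c, which takes microtubules apart at centromeres (1.50 ± 0.23), Kif20a, which moves the passenger complex to the midzone (1.29 ± 0.23), and Kif22, which pushes chromosome arms to the spindle equator (1.26 ± 0.17). Kif2c, Kif20a and Kif22 were 1.88 ± 0.30, 1.70 ± 0.29 and 1.73 ± 0.22 above MEF in MPSVII ES.

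Of the 8 measured centromere and kinetochore genes, 8 rose in clones (median 1.66), 7 in MPSVII ES (median 1.72) and 5 on the B6 Blu ES array (median 1.27). Cenpa encodes the histone H3 variant that marks centromeres, and it had 5.90, 6.87 and 7.60 in clones, 6.55 and 6.83 in MPSVII ES, 6.23 on the B6 Blu ES array and 4.88 and 4.98 in MEF. The arrays did not overlap, and the difference was 1.93 ± 0.24 in clones (adjusted p = 7.57e-05) and 1.75 ± 0.30 in MPSVII ES (adjusted p = 0.00118). Cenph and Cenpk, of the constitutive centromere network, differed by 2.26 ± 0.15 and 1.78 ± 0.20 in clones, and Cenpe, the kinetochore motor, by 1.54 ± 0.17.

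The 4 genes of the Ndc80 complex, which grips microtubules, differed in size. Ndc80 had 6.92, 7.30 and 7.56 in clones, 7.80 and 7.78 in MPSVII ES, 6.90 on the B6 Blu ES array and 6.40 and 6.09 in MEF. Its clone arrays all lay above MEF and all below MPSVII ES, and the differences from MEF were 1.05 ± 0.15 in clones (adjusted p = 0.000201) and 1.55 ± 0.19 in MPSVII ES (adjusted p = 0.000114). Spc24 differed by 2.67 ± 0.30 in clones and Nuf2 by 1.06 ± 0.19. Spc25 differed by 0.64 ± 0.18 in clones (adjusted p = 0.0191), with overlapping arrays, and by 0.46 ± 0.23 in MPSVII ES (adjusted p = 0.195).

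Among the 4 chromosome structure genes, 3 rose in clones and 4 in MPSVII ES. Top2a, the topoisomerase that untangles sister chromatids, rose by 2.29 ± 0.14 in clones (4.89-fold, adjusted p = 4.18e-07) and by 2.38 ± 0.17 in MPSVII ES. Cdca2, a phosphatase targeting subunit on anaphase chromosomes, rose by 1.89 ± 0.21 in clones, and Cdca5, which encodes the cohesion factor sororin, by 1.24 ± 0.28.

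Mki67, the proliferation marker whose protein coats mitotic chromosomes, went its own way. It had 7.24, 9.14 and 9.50 in clones, 9.25 and 9.11 in MPSVII ES, 9.18 on the B6 Blu ES array and 8.47 and 8.57 in MEF. The 6 arrays of clones 1, 5 and 6 lay above MEF, and both arrays of clone 2 (7.78 and 7.24) lay below it. The difference was 0.27 ± 0.17 in clones (adjusted p = 0.267) and 0.66 ± 0.21 in MPSVII ES (adjusted p = 0.0402). Without the arrays of clone 2 it was 0.69 in clones (adjusted p = 0.00361), and it was called there after quantile normalization (0.86, adjusted p = 0.000318) and after centring arrays on their medians (0.53, adjusted p = 0.011).

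All 4 spindle assembly genes rose in clones (median 1.77), in MPSVII ES (median 1.55) and on the B6 Blu ES array (median 1.20). In clones, the microtubule bundling gene Nusap1 differed by 2.22 ± 0.16, Dlgap5, a stabiliser of kinetochore fibres, by 1.84 ± 0.23, the central spindle bundler Prc1 by 1.70 ± 0.21 and Tpx2, the activator of Aurora A, by 1.66 ± 0.18.

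All 3 cytokinesis genes rose in clones and in MPSVII ES, and 2 rose on the B6 Blu ES array. Ect2, which switches on RhoA at the cleavage furrow, had the largest difference of all members in clones: it had 6.95, 8.01 and 8.48 on the clone arrays, 7.48 and 7.92 in MPSVII ES, 7.27 on the B6 Blu ES array and 4.84 and 4.43 in MEF. The gap between MEF and every other array was wide. The difference was 3.24 ± 0.21 in clones (9.48-fold, adjusted p = 7.88e-07) and 3.06 ± 0.27 in MPSVII ES (adjusted p = 1.24e-05). Its partner Racgap1 differed by 1.66 ± 0.21 in clones and the furrow scaffold Anln by 1.27 ± 0.22.

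Mybl2 encodes B-Myb, a transcription factor for many of these genes. It had 5.38, 6.29 and 6.76 in clones, 7.72 and 7.12 in MPSVII ES, 5.99 on the B6 Blu ES array and 3.89 and 3.05 in MEF. The lines fell into separate levels, with MPSVII ES on top, clones and B6 Blu ES between and MEF lowest. The difference from MEF was 2.69 ± 0.24 in clones (adjusted p = 7.14e-06), 3.95 ± 0.30 in MPSVII ES (adjusted p = 4.52e-06) and 2.52 ± 0.37 on the B6 Blu ES array (adjusted p = 0.000785).

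**Figure D3:**
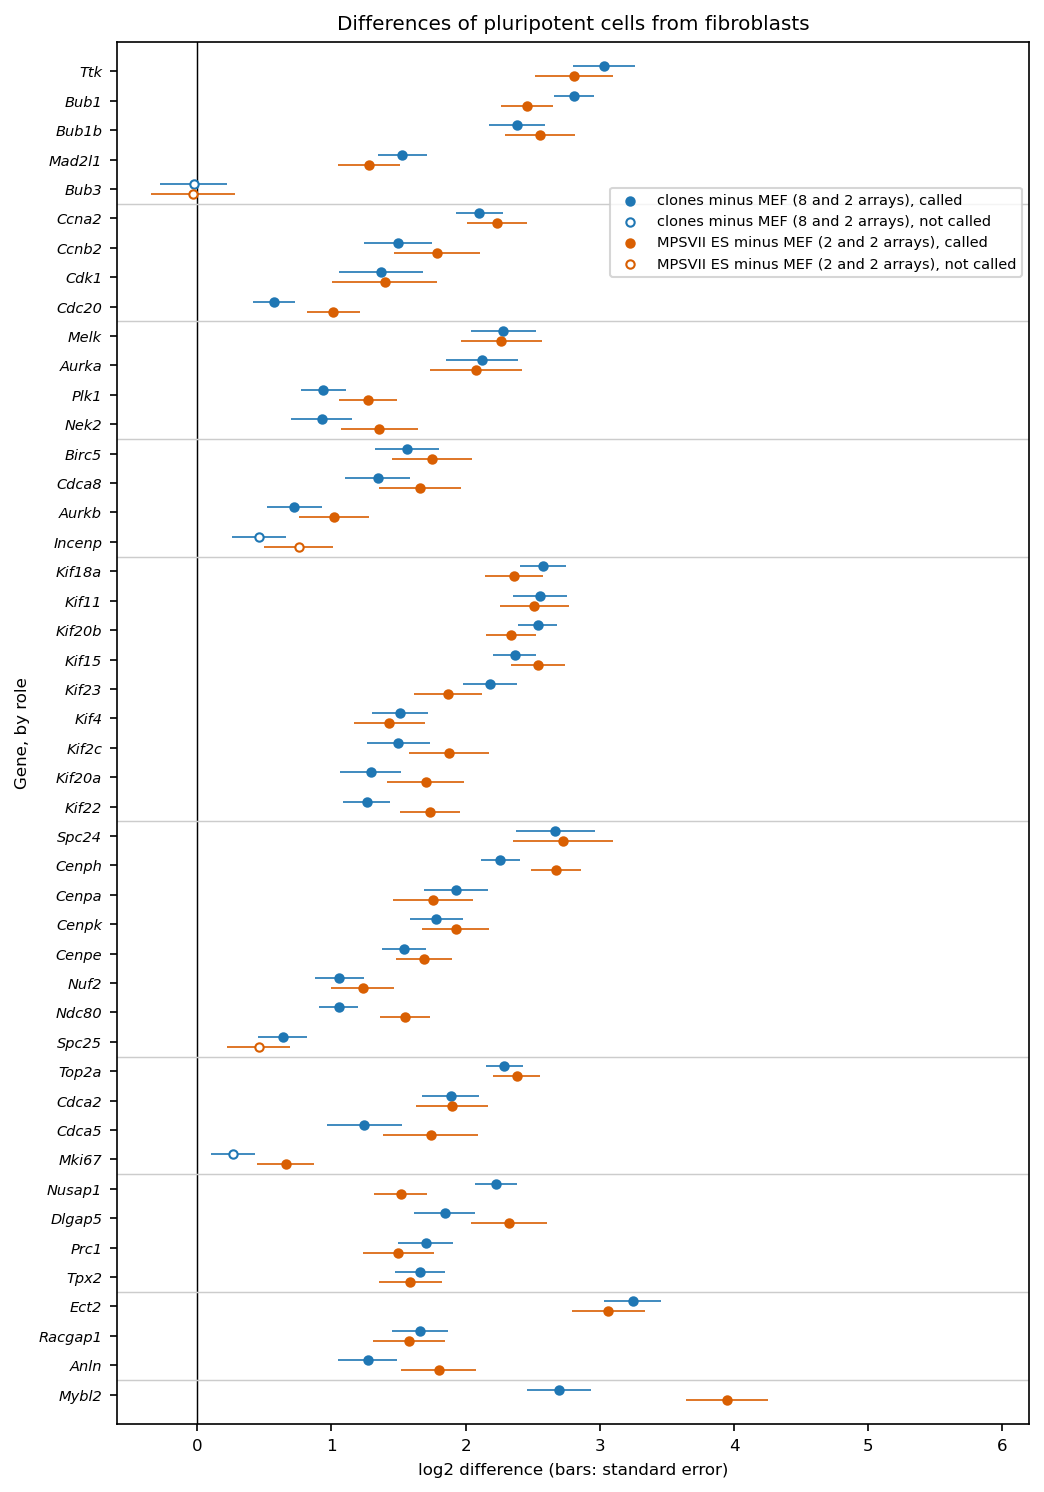
Log2 difference from MEF (horizontal axis, bars are standard errors) of each gene, grouped by role, in clones (blue) and MPSVII ES (orange), with filled points where the adjusted p lay under 0.05. The open points are Bub3 and Incenp in both comparisons, Mki67 in clones (0.27) and Spc25 in MPSVII ES (0.46).

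The call in clones was lost when 1 MEF array was left out for 6 members. These were Cdk1, Nek2, Aurkb and Cdca5 (without the second MEF array), Cdc20 (without the first) and Spc25 (without either). In MPSVII ES the calls of Cdk1 and Aurkb were lost without the second MEF or the second MPSVII ES array, and that of Mki67 was lost in 10 of 12 fits that left out an array, all but those without a clone 2 array. When line means were taken as samples, 24 members were called in clones, and the share of all rows called that way is not given.

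The second comparison asks whether reprogrammed cells matched the ES line named for the same disease model. In clones 0 members were higher than in MPSVII ES and 1 was lower, against 0.318% and 0.72% of all rows. At an unadjusted p under 0.05 in limma, 9 members differed. The share of all rows at that unadjusted threshold is not given, here or for the unadjusted counts below. The median over members was -0.14 log2 units, against -0.03 for all rows, and 28 of 46 differences were below 0. All clone arrays lay above both MPSVII ES arrays for 0 members, against 2.28% of all rows, and below both for 3 (Mybl2, Ndc80 and Cdc20), against 5.28% of all rows.

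The called gene was Mybl2, which fell by 1.25 ± 0.24 log2 units relative to MPSVII ES (adjusted p = 0.0427). Each of the 8 clone arrays given above was below both MPSVII ES arrays. Leaving out arrays in turn ended the call in 9 of 12 fits, all but those without a MEF array or the second clone 6 array, and the adjusted p reached 0.543 without the first MPSVII ES array. It was also lost without clone 2, where the difference was -1.04 (adjusted p = 0.0968).

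Nusap1 came nearest on the higher side. It had 7.07, 8.40 and 9.06 in clones and 7.44 and 7.54 in MPSVII ES, with clones 1, 5 and 6 above and clone 2 below. The difference was 0.71 ± 0.16 (adjusted p = 0.0648), and without clone 2 it was 1.07 (adjusted p = 0.0232). Ndc80 differed from MPSVII ES by -0.49 ± 0.15 (adjusted p = 0.171) and was not called. All its clone arrays lay below both MPSVII ES arrays, as they did for 5.28% of all rows.

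The remaining members differed from MPSVII ES by no more than 0.53 log2 units in either direction. For the checkpoint genes the differences were 0.35 ± 0.15 for Bub1, 0.22 ± 0.23 for Ttk, 0.25 ± 0.18 for Mad2l1 and -0.17 ± 0.21 for Bub1b. For Kif11 it was 0.04 ± 0.20 and for Cdk1 -0.03 ± 0.31, so differences of the size of their errors were not detectable with these arrays.

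The ES lines were also set against each other. In MPSVII ES 0 members were higher and 0 lower than on the B6 Blu ES array, against 0.132% and 0.072% of all rows, and 8 members differed at an unadjusted p under 0.05 in limma. The values of 44 of 46 members were nonetheless higher in MPSVII ES, with a median difference of 0.43 log2 units against 0.02 for all rows, and 0.21 after quantile normalization. The lowest unadjusted p values were those of Ndc80 (0.89 ± 0.23, adjusted p = 0.186) and Mybl2 (1.42 ± 0.37, adjusted p = 0.202). The shift was not particular to mitotic genes: 8 of 9 pluripotency markers were also higher in MPSVII ES (median 0.86). Of 10 fibroblast markers, 9 were lower there (median -0.78). B6 Blu ES has 1 array, so its own spread is not known.

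The clones were then taken one at a time, since each is a single colony. Against MEF, 43 members rose and 0 fell in clone 1 (7.99% and 20% of all rows, median over members 2.19), and 31 rose and 1 fell in clone 2 (4.78% and 28% of all rows, median 1.01). In clone 5, 43 rose and 0 fell (6.91% and 22.4% of all rows, median 1.94), and in clone 6, 42 rose and 0 fell (6.85% and 21.2% of all rows, median 1.63). A set of 31 members rose in all 4 clones, against 2.51% of all rows. Another 8 rose in 3 clones, 5 in 2, 1 in 1 (Incenp, in clone 5) and 1 (Bub3) in 0.

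Clone 2 was the lowest of the clones for most members as deposited. It had the lowest mean of the 4 clones for 45 of 46 members, and clone 1 had the highest for 37. The share of all rows with these ranks is not given, so the ranks do not set the members apart from other genes. These ranks moved with scaling: clone 2 was lowest for 26 members and clone 1 highest for 24 after quantile normalization, and for 25 and 26 members after cyclic loess normalization. The member that fell relative to MEF was Mki67 in clone 2, with 7.78 and 7.24 against 8.47 and 8.57 in MEF, a difference of -1.01 ± 0.21 (adjusted p = 0.00342). This call was lost after quantile normalization, where 0 members fell in clone 2.

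Against MPSVII ES, 0 members rose and 13 fell in clone 2, while 0.6% of all rows were higher there and 5.3% lower. All 46 values were below MPSVII ES, with a median of -0.73 log2 units, while 58.6% of all rows were below 0. The largest decreases were those of Mybl2 (-1.91 ± 0.30, adjusted p = 0.0101), Mki67 (-1.67 ± 0.21, adjusted p = 0.00407), Dlgap5 (-1.56 ± 0.28, adjusted p = 0.0151) and Kif2c (-1.29 ± 0.30, adjusted p = 0.0326). The others called were Anln, Kif15, Cenph, Kif22, Cenpk, Cdca2, Top2a, Bub1 and Ndc80, between -1.28 and -0.73. They come from most of the role groups, with 3 kinesins, 3 kinetochore genes and 3 chromosome structure genes among them. The shift was not particular to mitotic genes. Of 9 measured pluripotency markers, 4 fell and 0 rose in clone 2 relative to MPSVII ES (median -1.15, 8 values below 0 and 1 above). After quantile normalization 2 of these markers fell (median -0.68). Clone 2 also had the lowest pluripotency sums of the clone arrays (5363 and 3954) and the highest fibroblast sums (882 and 527). The lower of these fibroblast sums was close to that of the first clone 6 array (522). Of 10 fibroblast markers, 1 was called higher and 1 lower in clone 2 than in MPSVII ES.

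The size of the shift in clone 2 moved with the scaling of the arrays. Its arrays had the narrowest spread of all rows (interquartile ranges of 1.88 and 1.70, against 2.20 and 2.25 in MPSVII ES). After quantile normalization 7 members were lower, against 3.27% of all rows. The median was then -0.23, and 37 of 46 values were below 0, against 48.5% of all rows. After cyclic loess normalization 3 members were lower, against 1.41% of all rows, and the median was -0.17. After centring alone 16 were lower, against 5.84% of all rows, and the median was -0.65. Without the first MPSVII ES array 0 members were lower, without the second 2, and without the second clone 2 array 4.

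Clones 1, 5 and 6 had few called differences from MPSVII ES. In clone 1, 1 member rose and 0 fell (0.756% and 0.324% of all rows), while 39 of 46 values were above 0, with a median of 0.39 against -0.01 for all rows, and 17 members differed at an unadjusted p under 0.05 in limma. This shift in clone 1 depended on scaling. After quantile normalization 30 values were above 0 (median 0.19), and after cyclic loess normalization 31 (median 0.18). After centring alone 39 were above 0 (median 0.42). In clone 5, 2 rose and 0 fell (0.66% and 1.12% of all rows), with 11 members at an unadjusted p under 0.05 in limma and a median of 0.02. In clone 6, 0 rose and 0 fell in limma (0.024% of all rows in each direction), with 4 members at an unadjusted p under 0.05 and a median of -0.07. Without the share of all rows beside them, these unadjusted counts do not set the members apart from other genes. The member that rose in clone 1 was Nusap1 (1.35 ± 0.20, adjusted p = 0.0174). Clone 5 had Nusap1 (1.24 ± 0.20, adjusted p = 0.0157) and Bub1 (0.98 ± 0.19, adjusted p = 0.036). These calls were lost when either MPSVII ES array was left out, in clone 1 also without its second array, and in clone 5 without either of its own, and 1 of the clone 5 calls was lost without either clone 6 array.

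**Figure D4:**
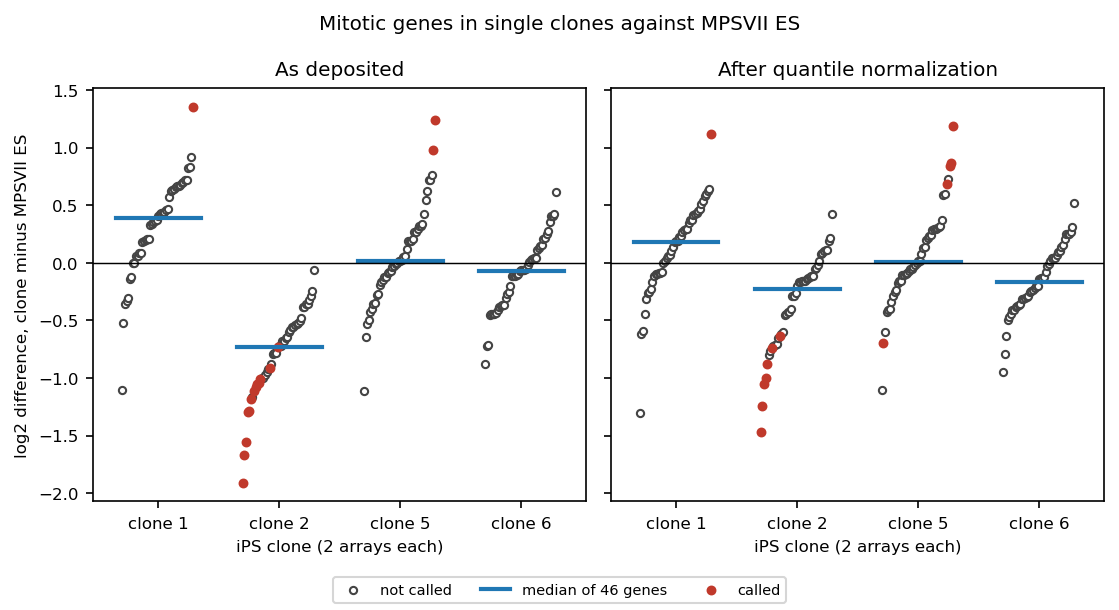
Log2 difference of each of the 46 genes (points, sorted within a clone) from MPSVII ES in the 4 clones, as deposited (left) and after quantile normalization (right), with red points called at an adjusted p under 0.05 and blue lines at the median. Clone 2 lies below 0 for all 46 genes on the left (median -0.73) and for 37 on the right (median -0.23).

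A moderated F test in limma asked which members differed among the clones, and 21 of 46 did, against 9.01% of all rows. The range between the highest and lowest clone mean had a median of 1.13 log2 units over members and 0.48 over all rows. Bub1 had 8.66 and 9.02 in clone 1, 7.05 and 6.96 in clone 2, 8.99 and 8.82 in clone 5 and 8.24 and 8.42 in clone 6 (range of means 1.90, adjusted p = 0.00203). Mki67 had 9.25 and 9.50 in clone 1, 7.78 and 7.24 in clone 2, 9.25 and 9.14 in clone 5 and 9.00 and 9.13 in clone 6 (range 1.86, adjusted p = 0.00324). Nusap1 had 8.63 and 9.06 in clone 1, 7.15 and 7.07 in clone 2, 8.82 and 8.64 in clone 5 and 8.05 and 8.17 in clone 6 (range 1.74, adjusted p = 0.00324). For all 3 genes both arrays of clone 2 lay below every array of the other clones. With both arrays of clone 2 left out, 0 of 46 members differed among the other clones. That fit compares fewer clones, and the share of all rows called in it is not given. The count of 0 therefore does not show that the members differed through clone 2 alone. The count was 6 without the second clone 2 array and 10 without the second clone 1 array.

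Other genes of mitosis were followed from a list of 98, of which 78 had a row. In clones 38 of the 78 rose and 8 fell relative to MEF (median 0.70), against 7.78% and 27% of all rows. After quantile normalization 56 rose and 2 fell, against 20% and 18.7% of all rows. In MPSVII ES 40 rose and 4 fell (median 0.89), against 6.7% and 20% of all rows, and after quantile normalization 54 rose and 1 fell, against 14.5% and 15% of all rows. Against MPSVII ES 0 rose and 0 fell in clones (0.318% and 0.72% of all rows), with 17 at an unadjusted p under 0.05 in limma and a median of -0.16. In clone 2, 0 of the 78 rose and 24 fell relative to MPSVII ES, against 0.6% and 5.3% of all rows. That count depended on scaling: 2 rose and 8 fell after quantile normalization (2.29% and 3.27% of all rows), and 2 rose and 1 fell after cyclic loess normalization (1.33% and 1.41% of all rows).

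Of 12 measured genes of APC/C subunits and its activator, 0 rose and 4 fell in clones relative to MEF, shares near the 7.78% of all rows that were higher and the 27% that were lower. The 4 were the cullin subunit Anapc2 (-1.41 ± 0.21, adjusted p = 0.000318), the scaffold subunit Anapc4 (-1.13 ± 0.15, adjusted p = 0.000167), the RING subunit Anapc11 (-0.89 ± 0.16, adjusted p = 0.00112) and Cdc27. The largest value the other way was that of Anapc10, 0.32 ± 0.38 (adjusted p = 0.584). This depended on scaling: the median of the 12 genes was -0.33 as deposited and 0.23 after quantile normalization. There 2 rose and 2 fell, against 20% and 18.7% of all rows. After cyclic loess normalization the median was 0.07, and 0 rose and 4 fell, against 16.9% and 22.9% of all rows. Of 5 measured regulators of APC/C and the checkpoint, 2 rose, the APC/C inhibitor gene Fbxo5 (2.70 ± 0.17, adjusted p = 5.79e-07) and the APC/C ubiquitin-conjugating enzyme gene Ube2c (1.71 ± 0.31, adjusted p = 0.0012).

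Of 7 condensin genes, 6 rose in clones relative to MEF and 0 fell (7.78% and 27% of all rows), led by Ncapd3 (1.51 ± 0.24), Smc2 (1.43 ± 0.15) and Ncapd2 (1.42 ± 0.23), and Ncaph2 was at -0.12 ± 0.23. Of 13 cohesin and separase genes, 6 rose, 1 fell and 6 were not called (median 0.38). Esco2, an acetyltransferase that makes cohesion lasting, had the largest difference of the wider list, 4.07 ± 0.16 (adjusted p = 2.79e-08), with 6.67 to 9.44 in clones, 7.82 and 7.85 in MPSVII ES, 7.54 on the B6 Blu ES array and 4.12 and 4.48 in MEF. The shugoshin genes Sgo2a and Sgo1, which protect centromeric cohesion, rose by 2.42 ± 0.17 and 2.29 ± 0.16. The cohesin subunit gene Stag2 fell by 0.52 ± 0.17 (adjusted p = 0.0356). After quantile normalization 11 of the 13 rose and 0 fell, against 20% and 18.7% of all rows.

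Of 18 other kinetochore genes, 10 rose in clones relative to MEF and 3 fell, against 7.78% of all rows that were higher and 27% that were lower. The same shares of all rows stand against the other lists of this paragraph. Zwilch, of the complex that brings dynein to kinetochores, rose by 2.66 ± 0.21 (adjusted p = 2.62e-06), Ska3, of a microtubule-binding complex, by 1.95 ± 0.18, and the centromere gene Cenpp by 1.92 ± 0.16. The kinetochore gene Zwint fell by 0.94 ± 0.15 (adjusted p = 0.000519). After quantile normalization 15 of the 18 rose and 0 fell, against 20% and 18.7% of all rows. Of 15 centrosome and other spindle genes, 11 rose and 0 fell, led by Hmmr (2.27 ± 0.16), Cep55 (1.91 ± 0.17), which acts in the final cut between daughter cells, and Bora (1.86 ± 0.20), a partner of Aurora A. Nedd1 was at -0.27 ± 0.19. Of 8 genes of mitotic entry, 3 rose and 0 fell: the Cdk1-activating phosphatase gene Cdc25c (1.85 ± 0.24), the kinase gene Mastl (1.62 ± 0.15) and Cdc25a (0.99 ± 0.25).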

How the data were processed

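Total RNA of 13 mouse samples in 7 lines was amplified (NuGEN WT-Ovation Pico, per the labels' protocols) and measured on Mouse Exon 1.0 ST arrays of Affymetrix. The authors deposited 1 table of log2 signal, made with Affymetrix Expression Console and RMA per the submitters' processing notes. The versions and the genome build are not given in the sources used here. Of its 23238 rows, 6577 in a range of row numbers without any annotated gene were left out as controls, which left 16661, of which 14939 carry 1 gene symbol. Array rows have no read depth, so the number of arrays limits the precision.

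A linear model with 1 mean per line over all 13 arrays was fitted to all rows with limma 3.58.1 in R 4.3.3 (lmFit, then eBayes; 6 residual and 4.53 prior degrees of freedom, median residual SD 0.252), and p-values were adjusted by Benjamini-Hochberg over all rows. Clones were averaged with equal weight. The lone B6 Blu ES array was assumed to vary like the other lines. Differences among clones used the moderated F test. The code was run on simulated data with the same layout. These had independent noise and no differences of spread between arrays, so the run checked the code only. RefSeq (GRCm38.p6) matched all 46 member rows by Entrez number, changed 0 symbols and gave the promoters.

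The members, lists and tests were chosen with earlier results of these data known. Any member could be named. Array values are given for the 3 largest and 2 smallest differences of clones from MEF, up to 3 of lowest adjusted p against MPSVII ES and among clones, and Bub1b, Mad2l1, Cdk1, Aurkb, Kif11, Cenpa, Ndc80, Mki67 and Mybl2. From the other lists up to 3 called genes and 1 of opposite sign were named. Lists that were not members and their results stand in the text.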

Additional observations from a re-analysis of the deposited data

Results flagged for a closer look

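Differences between the clones under the same test were found for 21 of the 46 members, by limma's moderated F test at an adjusted p under 0.05. Clone 2 had the lowest mean for all 21, and the share of all rows with this rank is not given. Clone 1 had the highest mean, except for Bub1 and Racgap1 (clone 5) and Cenpk (clone 6). The values below are ranges of the 4 clone means in log2 units.

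In the spindle checkpoint and among cyclins and kinases the ranges were 1.90 for Bub1, 1.47 for Bub1b, 1.48 for Ttk, 1.54 for Ccnb2 and 1.58 for Melk. Among kinesins they were 1.62 for Kif15, 1.55 for Kif18a, 1.01 for Kif20b, 1.16 for Kif22 and 1.64 for Kif2c. Among kinetochore genes they were 1.18 for Cenph, 1.26 for Cenpk and 1.22 for Nuf2. Among chromosome structure genes they were 1.43 for Top2a, 1.86 for Mki67 and 1.715 for Cdca2. For spindle assembly and cytokinesis they were 1.17 for Tpx2, 1.74 for Nusap1, 1.40 for Prc1, 1.92 for Dlgap5 and 1.70 for Racgap1.

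The arrays of clone 2 had interquartile ranges of all rows of 1.88 and 1.70, against 1.96 to 2.39 for the other clone arrays, and the part of this spread in the differences was not tested beyond the normalizations given in the next section. After quantile normalization clone 2 had the lowest mean of the clones for 26 of 46 members, against 45 as deposited. Bub1, Kif15, Top2a, Mki67 and Nusap1 were called in every fit that left out 1 array, and 0 of the 21 were called without clone 2. No single clone array stood out from the other 7 for any member, by its gap to the nearest array over the range. This rule looks for 1 array apart from all others. It could not flag clone 2 where both of its arrays lay low together, as for Bub1, Mki67 and Nusap1. The absence of a flag therefore says nothing about whether clone 2 stood apart.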

How the results depend on the processing

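Higher counts in clones against MEF ranged from 38 to 43 when 1 array was left out, and were 46, 45 and 44 after quantile normalization, median centring and cyclic loess, and 24 with line means as samples. In all, 37 of the 43 called members were called in every left-out fit and 22 under every alternative tried. Bub3 turned to 0.65 under quantile normalization and Plk1 to -0.16 on its dimmer row. The share of all rows higher in clones than in MEF also grew, from 7.78% as deposited. It was 20%, 20.8% and 16.9% after quantile normalization, median centring and cyclic loess. Centring brought the median of all rows to 0.17 (-0.09 as deposited), with the members at 1.92. MPSVII ES against MEF ranged from 40 to 43 and B6 Blu ES from 25 to 34 in left-out fits, and were 12 and 6 with line means as samples. Against MEF, left-out fits gave 40 to 43 higher in clone 1, 22 to 31 higher and 1 lower in clone 2 (0 lower after quantile normalization), 37 to 43 in clone 5 and 35 to 43 in clone 6. Against MPSVII ES, clones had 0 to 1 lower in left-out fits, 0 lower with all rows, with line means or without clone 2, and 1 higher (Nusap1) under quantile, centring, loess, array weights or without clone 2. For clone 1, left-out fits gave 0 to 1 higher, centring or leaving out dim rows 2, array weights 4 with 1 lower, and all rows or only the compared lines 0. For clone 2, left-out fits gave 0 to 14 lower, quantile normalization 7, loess 3, all rows 6 and only the compared lines 0. For clone 5, left-out fits gave 0 to 2 higher, quantile and loess 4 with 1 lower each, all rows or a minimum difference of 1 gave 1, and only the compared lines 0. Differences among clones were called for 6 to 21 members in left-out fits, 13 after loess, 12 with all rows, 12 with only the compared lines and 0 without clone 2. Other left-out ranges were 0 to 0. The causes of these changes were not tested. Except where stated above, the share of all rows is not given for these settings or for the fit with replicate numbers below. Those counts therefore do not set the members apart from other genes.

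The replicate numbers of the labels did not pair the arrays: 4 of 15 pairs of lines had correlated deviations above 0.1 (r from -0.24 to 0.24). With the replicate number as a block and without B6 Blu ES, 43 members were higher in clones and 43 in MPSVII ES than in MEF, 1 was lower in clones than in MPSVII ES, 9 were lower in clone 2, 1 was higher in clone 5, and 17 differed among clones.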

Other observations

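Lists of genes upstream of mitosis were also set against MEF, where 7.78% of all rows were higher and 27% lower in clones, and 6.7% and 20% in MPSVII ES. Of 6 measured Cdk inhibitor genes, 4 fell in clones and 0 rose, and 4 fell in MPSVII ES. Cdkn1a, which encodes the p53-induced inhibitor of G1 kinases, had 4.55 to 5.78 on the clone arrays, 5.44 and 5.38 in MPSVII ES, 5.96 on the B6 Blu ES array and 9.15 and 8.27 in MEF, a difference of -3.28 ± 0.28 in clones (adjusted p = 5.72e-06). Cdkn2c was at -2.52 ± 0.46 (adjusted p = 0.00122), with 6.55 and 4.30 in MEF, so its MEF arrays were far apart. Cdkn2a, a tumour suppressor locus, was at -1.40 ± 0.18 (adjusted p = 8.69e-05). After quantile normalization 3 of the 6 fell, against 18.7% of all rows.

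Of 8 cyclins and kinases of the G1 and S phases, 2 rose and 3 fell in clones. The G1 genes Ccnd2 (-3.48 ± 0.27), Ccnd1 (-2.51 ± 0.28) and Cdk6 (-2.31 ± 0.30) fell, and the cyclin E gene Ccne1 rose by 1.80 ± 0.23 (adjusted p = 9.82e-05). Of 8 genes of the DREAM and MuvB complexes, 1 rose and 1 fell, so the share that rose was near that of all rows. Rbl2, which encodes a pocket protein, fell by 1.58 ± 0.20 (adjusted p = 8.37e-05), and the MuvB gene Lin54 rose by 0.71 ± 0.22 (adjusted p = 0.0278). After quantile normalization 5 of these 8 rose and 1 fell, where 20% of all rows were higher and 18.7% lower.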
